A study of Mus musculus with 21 samples.

Results

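Wnt ligands, antagonists and targets were followed through 21 cultures of mouse fibroblasts with and without Prrx1, a homeobox transcription factor of mesenchymal cells. The genes were Sfrp1, Sfrp2, Dkk2, Dkk3, Wnt5a, Rnf43, Axin2, Lef1, Tcf7 and Tcf4 (listed in capitals, as SFRP1, SFRP2, DKK2, DKK3, WNT5A, RNF43, AXIN2, LEF1, TCF7 and TCF4), which were chosen by name, and all 10 were found among the 24540 gene symbols of the 3 deposited count tables. RNA-seq covered 7 groups of 3 cultures. Mouse embryonic fibroblasts (MEF, labelled strain C57BL/6) came from embryos of days 10 to 13 and formed a WT group, a Prrx1 mutant group from 129S-Prrx1tm1Jfm/Mmmh mice, in which LacZ disrupts Prrx1, and a group edited with CRISPR/Cas9 and a guide RNA against Prrx1 (sgPrrx1). Wound-healing fibroblasts (C57BL/6, dorsal skin wounds, day 10) and MMTV-CAF, the cancer-associated fibroblasts of breast tumours in MMTV-PyMT mice (FVB/NJ), each formed a WT and an sgPrrx1 group. All cells were immortalized with papillomavirus genes (written HPV E6/E in the labels) and grown in DMEM with 10% serum. In wound-healing fibroblasts and MMTV-CAF the WT label stands for the non-targeting guide sgNS. Whether WT MEF also carried that guide is not clear from the sources used here. The mutant and the sgPrrx1 MEF were compared with the same 3 WT MEF cultures. The sources used here do not say whether edited cells were a clone, or whether the 3 cultures of a group were more than repeat samples of 1 line, so the p-values measure only the spread between these samples, which may be technical. Fibroblast type and source animal, and in MMTV-CAF also strain, cannot be told apart. The mutant MEF came from mice of a line of their own, which the study's methods give as backcrossed to C57BL6, so that in both comparisons of the mutant the genotype, the source mice and any remaining strain difference cannot be told apart. Total counts ranged from 69588655 to 134790440 per culture, with a median of 85183086.

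Wnt proteins are secreted lipid-modified ligands that bind Frizzled receptors. In the canonical branch, LRP co-receptors join the complex, β-catenin is spared from the Axin-containing destruction complex, enters the nucleus and activates genes together with TCF/LEF factors. Secreted frizzled-related proteins (SFRP) bind the ligands, Dickkopf proteins (DKK) act on the co-receptors, and RNF43 removes Frizzled from the cell surface. In fibroblasts the pathway is known for its part in wound repair, fibrosis and tumour stroma. The symbol Tcf4 needs care. In mouse it names the bHLH gene also called E2-2, while the TCF/LEF factor often called TCF-4 is Tcf7l2. RefSeq lists the older name under both genes.

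Levels are given as CPM, counts relative to library size with TMM scaling over all 21 cultures, with the 3 cultures of a group in the order of their labels. Prrx1 itself (chr1:163245119-163315145 in GRCm38.p6) was measured at 192, 166 and 184 CPM in WT MEF, 26.1, 20.7 and 19.9 CPM in mutant MEF and 126, 94.9 and 140.5 CPM in sgPrrx1 MEF. Wound-healing fibroblasts had 146, 143 and 152 CPM in WT and 65.3, 64.2 and 65.1 CPM in sgPrrx1 cultures, and MMTV-CAF had 627, 632 and 636 CPM and 308, 309 and 301 CPM. In every comparison all Prrx1-loss cultures lay below all WT cultures. The log2 fold change was −3.04 ± 0.14 (SE, as throughout) in mutant MEF and −0.6 ± 0.14 in sgPrrx1 MEF. For edited wound-healing fibroblasts it was −1.18 ± 0.026 and for edited MMTV-CAF −1.06 ± 0.017, and all were called. A call is an edgeR adjusted p under 0.05 over all genes tested in that comparison. Small deletions at a guide site can leave the transcript in place, so the RNA level does not measure how much protein was lost.

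The fibroblast label was checked against marker genes. The 10 fibroblast markers summed to between 3615 CPM (a sgPrrx1 wound culture) and 33932 CPM (a WT MMTV-CAF culture), with Col1a1, Col1a2, Col3a1 and Vim above 100 CPM in every group. Lum, another fibroblast marker, was at or near 0 except in WT MMTV-CAF (1.27 CPM). The fibroblast sums moved with Prrx1 loss, and their part in the results below was not tested. Thy1 fell from 57.3 to 0.641 CPM in MMTV-CAF, from 49.8 to 2.88 CPM in wound-healing fibroblasts and from 103 to 54.0 CPM in mutant and 69.3 CPM in sgPrrx1 MEF. Dcn, the gene of the matrix proteoglycan decorin, rose from 32.4 to 588 CPM in MMTV-CAF and fell elsewhere, from 48.8 to 0.142 CPM in mutant and 9.56 CPM in sgPrrx1 MEF and from 9.57 to 4.16 CPM in wound-healing fibroblasts. Pdgfra, a growth factor receptor of fibroblasts, fell in MEF from 142 to 19.2 CPM in mutant and 16.6 CPM in sgPrrx1 cultures and in wound-healing fibroblasts from 59.0 to 21.2 CPM, and rose in MMTV-CAF from 939 to 1835 CPM. Epithelial markers summed to at most 14.4 CPM in any culture and immune markers to at most 7.24 CPM, and the epithelial Epcam and the pan-leukocyte Ptprc were each under 0.2 CPM in every group. In MMTV-CAF the immune sums fell from between 6.43 and 7.24 CPM to between 0.84 and 0.958 CPM, with Csf1r going from 5.60 to 0.191 CPM. In sgPrrx1 MEF they rose, from between 3.36 and 4.12 CPM to between 4.78 and 5.46 CPM. They also rose in edited wound-healing fibroblasts, from between 2.80 and 3.58 CPM to between 3.67 and 4.73 CPM. Csf1r was called higher in both, and Cd68 was called in neither. Epithelial sums fell in mutant MEF from between 5.65 and 7.29 CPM to between 0.993 and 1.17 CPM, mostly through Krt14 (5.88 to 0 CPM). Cdh1 also fell there (0.503 to 0.0196 CPM), while Krt18 (0 to 0.595 CPM) and Krt8 (0.0384 to 0.433 CPM) were called higher. Endothelial sums in MMTV-CAF fell from between 2.93 and 3.64 CPM to between 0.143 and 0.284 CPM. Endothelial markers summed to between 140.0 and 293.0 CPM in wound-healing fibroblasts, nearly all of it Kdr (290.3 CPM in WT and 142 CPM in sgPrrx1), while Pecam1 was at 0 and Cdh5 at or under 0.1 CPM there. Pericyte markers summed to between 9.65 and 326 CPM, led by Cspg4 in 6 of the 7 groups and by Mcam in sgPrrx1 wound-healing fibroblasts. These sums moved with Prrx1 loss too. MEF had between 277 and 326 CPM in WT, 119 and 157 CPM in mutant and 195 and 239 CPM in sgPrrx1 cultures. MMTV-CAF went from at least 59.8 CPM in WT to at most 10.1 CPM, and wound-healing fibroblasts from at most 51.1 to at least 56.7 CPM. Cspg4 fell in all 4 comparisons, most in MMTV-CAF (47.7 to 4.96 CPM), and Mcam rose in wound-healing fibroblasts (17.0 to 47.0 CPM) and mutant MEF and fell in the other 2 comparisons. The part of these shifts in the results was not tested. In bulk cultures, fewer cells of a type and less RNA per cell cannot be told apart.

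The number of the 10 genes that changed differed between comparisons, as did the share of all genes that changed. In mutant MEF 7 of 10 were called, 4 lower and 3 higher, where 59.9% of 13616 genes tested were called (30.5% lower and 29.4% higher). In sgPrrx1 MEF 7 of 9 tested were called, all 7 lower, where 43.1% of 13372 genes were called (22.8% lower and 20.3% higher), and Rnf43 had too few counts to test. Without WT or sgPrrx1 replicate 2 the same model called 3830 or 3834 genes in sgPrrx1 MEF in place of 5764. In wound-healing fibroblasts 10 of 10 were called, 6 lower and 4 higher, against 77.6% of 13939 genes (39.3% lower and 38.3% higher). In MMTV-CAF 10 of 10 were called, 5 lower and 5 higher, against 83.1% of 13903 genes (41.9% lower and 41.2% higher). With most genes called in 3 of the 4 comparisons, a call says little by itself, and size and direction carry the description. With at least a 2-fold change also asked, 6 of 10 genes were called in mutant MEF (24.1% of all genes), 4 of 9 in sgPrrx1 MEF (10.6%), 5 of 10 in edited wound-healing fibroblasts (15.6%) and 8 of 10 in edited MMTV-CAF (24.3%). No gene of the 10 was called in the same direction in all 4 comparisons except Dkk2, which was lower in each. Its call in mutant MEF was lost under 3 of 15 alternatives.

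**Figure D1:**
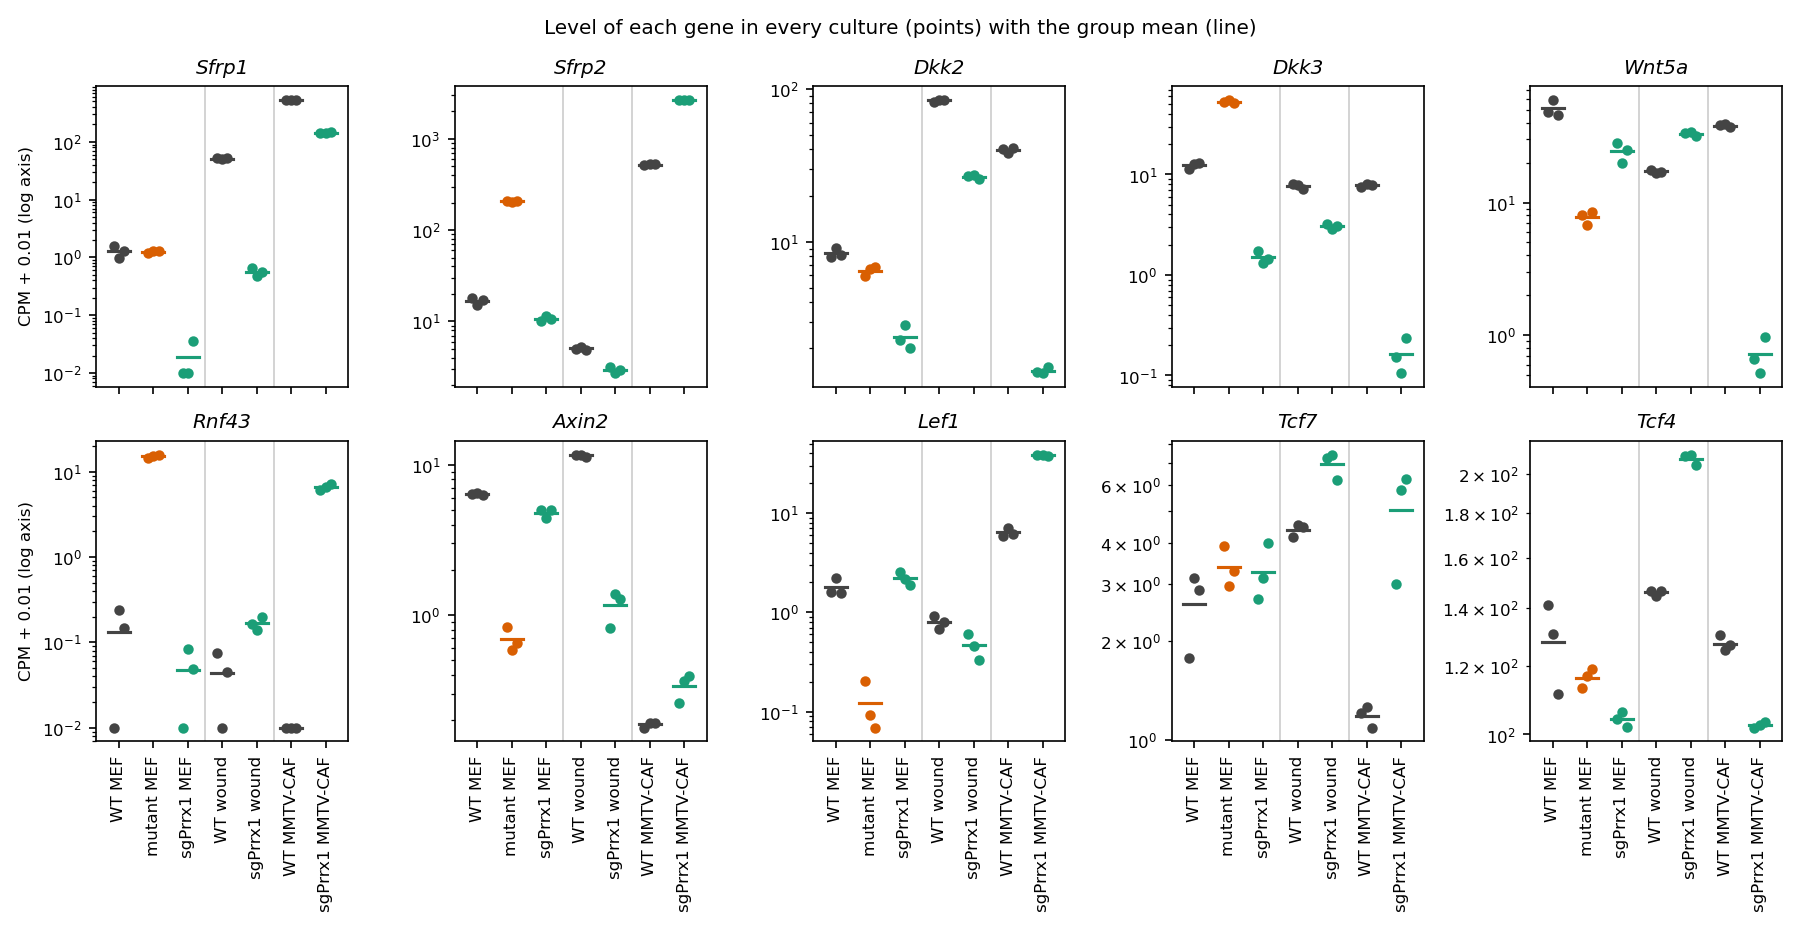
Level of the 10 genes in each of the 21 cultures (points, CPM with 0.01 added, log axis) with the group mean (line), in grey for WT, orange for mutant MEF and green for sgPrrx1 cultures, with vertical lines between the fibroblast types. Cultures of a group mostly lie close together, and Rnf43 is low in 5 of the 7 groups.

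Sfrp1 (chr8:23411383-23449632), a secreted antagonist that binds Wnt ligands, fell in all 3 edited types but not detectably in mutant MEF. WT MMTV-CAF had 537, 538 and 538 CPM and sgPrrx1 MMTV-CAF 143, 144 and 147 CPM. WT wound-healing fibroblasts had 52.4, 50.3 and 51.6 CPM and sgPrrx1 cultures 0.637, 0.461 and 0.559 CPM. The groups did not overlap in either type, and the log2 fold change was −1.91 ± 0.016 (edgeR adjusted p = 4.92e-11) in MMTV-CAF and −6.55 ± 0.070 (edgeR adjusted p = 4.78e-11) in wound-healing fibroblasts. MEF held little Sfrp1, with 1.55, 0.965 and 1.28 CPM in WT and 1.19, 1.27 and 1.26 CPM in mutant cultures, which overlapped (−0.05 ± 0.22, edgeR adjusted p = 0.858). The sgPrrx1 MEF had 0, 0 and 2 counts against 107, 67 and 111 in WT MEF, a level 135-fold higher in WT with a 95% counting interval from 36.9 to 1117. In order of mean level, WT MMTV-CAF stood first, then sgPrrx1 MMTV-CAF and WT wound-healing fibroblasts, and only WT and mutant MEF, in the middle of the order, overlapped.

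Sfrp2 (chr3:83765750-83774314), a second ligand-binding antagonist, moved in opposite directions. It rose in mutant MEF from 18, 15.2 and 17.1 CPM in WT to 208, 203 and 210.5 CPM, and in MMTV-CAF from 512, 529 and 525 CPM to 2692, 2666 and 2638 CPM. These were changes of 12.1-fold (log2 3.6 ± 0.10, edgeR adjusted p = 1.65e-06) and 5.04-fold (log2 2.33 ± 0.018, edgeR adjusted p = 3.95e-11), with no overlap. It fell in sgPrrx1 MEF, at 10.1, 11.3 and 10.7 CPM, with a log2 fold change of −0.66 ± 0.095 (edgeR adjusted p = 0.00189), and in wound-healing fibroblasts from 4.95, 5.29 and 4.91 CPM to 3.12, 2.72 and 2.92 CPM with one of −0.8 ± 0.087 (edgeR adjusted p = 3.50e-05). Both falls were under 2-fold. Per kb of exon, Sfrp2 reached 1238 CPM per kb in sgPrrx1 MMTV-CAF, the highest of the 10 genes in any group, and 1.35 CPM per kb in sgPrrx1 wound-healing fibroblasts. All 7 groups stood apart in level.

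Dkk2 (chr3:132085266-132180304) encodes a Dickkopf protein that acts on LRP co-receptors. It was lower with Prrx1 loss in all 4 comparisons. MMTV-CAF went from 40.2, 37.7 and 40.6 CPM in WT to 1.38, 1.37 and 1.5 CPM in sgPrrx1 cultures, a log2 fold change of −4.82 ± 0.051 (edgeR adjusted p = 1.16e-10). Wound-healing fibroblasts went from 81.9, 84.3 and 84.6 CPM to 26.6, 27.4 and 25.8 CPM, a log2 fold change of −1.66 ± 0.030 (edgeR adjusted p = 6.39e-10). In MEF, WT cultures had 7.95, 9.09 and 8.14 CPM, sgPrrx1 cultures 2.28, 2.82 and 2.01 CPM and mutant cultures 5.93, 6.62 and 6.76 CPM. No 2 groups overlapped. The fall was 3.57-fold in sgPrrx1 MEF (log2 −1.84 ± 0.15, edgeR adjusted p = 0.000186) and 1.32-fold in mutant MEF (log2 −0.41 ± 0.11, edgeR adjusted p = 0.0149). The call in mutant MEF was lost without WT replicate 2 (edgeR adjusted p = 0.0670) and with replicate number as a block (edgeR adjusted p = 0.0517).

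Dkk3 (chr7:112116019-112159482), a Dickkopf relative whose action on Wnt signalling is less uniform, fell in the 3 edited types and rose in the mutant. In MMTV-CAF it went from 7.48, 8.04 and 7.81 CPM to 0.142, 0.0961 and 0.223 CPM, a 52-fold fall (log2 −5.7 ± 0.18, edgeR adjusted p = 2.69e-08). In wound-healing fibroblasts it went from 8.05, 7.87 and 7.15 CPM to 3.22, 2.84 and 3.09 CPM (log2 −1.34 ± 0.082, edgeR adjusted p = 7.46e-07). WT MEF had 11.2, 12.7 and 13.1 CPM, sgPrrx1 MEF 1.72, 1.3 and 1.44 CPM and mutant MEF 52.1, 55.5 and 52 CPM. The mutant cultures lay above all other cultures of the study and the sgPrrx1 MEF below WT, with log2 fold changes of 2.08 ± 0.093 (edgeR adjusted p = 5.98e-06) and −3.07 ± 0.14 (edgeR adjusted p = 1.74e-05). WT MMTV-CAF and WT wound-healing fibroblasts were alike within their spread, at 7.78 ± 0.281 and 7.69 ± 0.473 CPM (SD, n = 3).

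Wnt5a (chr14:28504543-28527448), a ligand best known for the non-canonical branches of the pathway, fell in 3 comparisons and rose in wound-healing fibroblasts. WT MMTV-CAF had 38.1, 38.9 and 36.8 CPM and sgPrrx1 MMTV-CAF 0.657, 0.51 and 0.965 CPM, a 54.8-fold fall (log2 −5.77 ± 0.16, edgeR adjusted p = 1.16e-08). WT MEF had 48.1, 59.6 and 46.1 CPM, mutant MEF 8.04, 6.78 and 8.54 CPM and sgPrrx1 MEF 28.1, 19.999 and 25.1 CPM. Neither Prrx1-loss group of MEF overlapped WT, and the log2 fold changes were −2.74 ± 0.15 (edgeR adjusted p = 1.13e-05) and −1.08 ± 0.15 (edgeR adjusted p = 0.00175). In wound-healing fibroblasts Wnt5a went from 17.6, 16.8 and 17.1 CPM in WT to 33.5, 33.9 and 31.9 CPM, a rise of 1.92-fold (log2 0.94 ± 0.034, edgeR adjusted p = 2.94e-08). The order of levels ran from WT MEF down to sgPrrx1 MMTV-CAF with no overlap between neighbours.

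Rnf43 (chr11:87663087-87735539), a ubiquitin ligase that takes Frizzled receptors off the cell surface, had at most 16 counts in any WT culture and was abundant in mutant MEF and sgPrrx1 MMTV-CAF. MMTV-CAF had 0 counts in each of the 3 WT cultures and 682, 886 and 797 counts in the sgPrrx1 cultures (6.05, 6.55 and 7.12 CPM). Against a floor of 3 counts over the WT group this was at least 776-fold higher. Mutant MEF had 1131, 1279 and 1084 counts (14.6, 15.1 and 15.9 CPM) against 0, 16 and 12 in WT MEF, a log2 fold change of 6.9 ± 0.54 (edgeR adjusted p = 6.10e-05). The sgPrrx1 MEF, with 0, 5 and 3 counts, overlapped WT. Wound-healing fibroblasts had 6, 0 and 3 counts in WT and 14, 12 and 14 in sgPrrx1 cultures. That rise (log2 2.12 ± 0.65, edgeR adjusted p = 0.0161) rested on 49 counts in all and was lost with no filter on low counts (edgeR adjusted p = 0.0587) and without sgPrrx1 replicate 3 (0.0527).

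Axin2 (chr11:108917828-108950783), a scaffold of the destruction complex and itself a widely used target of canonical signalling, fell most in mutant MEF and in wound-healing fibroblasts. WT MEF had 6.35, 6.51 and 6.32 CPM and mutant MEF 0.826, 0.578 and 0.646 CPM, a 9.48-fold fall (log2 −3.25 ± 0.18, edgeR adjusted p = 1.34e-05). Wound-healing fibroblasts had 11.7, 11.7 and 11.2 CPM in WT and 0.816, 1.37 and 1.26 CPM in sgPrrx1 cultures, a 10.1-fold fall (log2 −3.33 ± 0.15, edgeR adjusted p = 9.27e-08). The groups were far apart in both. In sgPrrx1 MEF Axin2 was at 4.998, 4.4 and 4.96 CPM, a log2 fold change of −0.43 ± 0.10 (edgeR adjusted p = 0.0137) that was not called without WT replicate 2 (edgeR adjusted p = 0.0524) or without sgPrrx1 replicate 2 (0.0658). MMTV-CAF held the least, 0.168, 0.183 and 0.181 CPM in WT and 0.248, 0.355 and 0.384 CPM in sgPrrx1 cultures. The log2 fold change there was 0.87 ± 0.26 (edgeR adjusted p = 0.0145), and it was not called without sgPrrx1 replicate 3 (edgeR adjusted p = 0.0561) or by DESeq2 (adjusted p = 0.0504).

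Lef1 (chr3:131110297-131224357) encodes a TCF/LEF factor that pairs with β-catenin and is also a common target of the pathway. It rose in MMTV-CAF from 5.86, 7.05 and 6.19 CPM in WT to 38.3, 38.9 and 37.6 CPM in sgPrrx1 cultures, a 5.93-fold change (log2 2.57 ± 0.066, edgeR adjusted p = 8.64e-09). In mutant MEF it fell to 15, 7 and 4 counts (0.194, 0.0826 and 0.0587 CPM) from 111, 153 and 135 counts (1.61, 2.2 and 1.55 CPM), a log2 fold change of −3.99 ± 0.43 (edgeR adjusted p = 0.000261). The sgPrrx1 MEF, at 2.51, 2.16 and 1.88 CPM, overlapped WT (0.28 ± 0.20, edgeR adjusted p = 0.297). Wound-healing fibroblasts had 0.909, 0.667 and 0.787 CPM in WT and 0.593, 0.451 and 0.32 CPM in sgPrrx1 cultures, which did not overlap. That change of −0.79 ± 0.27 (edgeR adjusted p = 0.0250) was not called without WT replicate 1 or 3 or sgPrrx1 replicate 2 or 3 (edgeR adjusted p from 0.0524 to 0.0902).

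Tcf7 (chr11:52246527-52283383), the gene of the TCF/LEF factor TCF-1, rose in both edited MMTV-CAF and edited wound-healing fibroblasts. MMTV-CAF had 1.2, 1.25 and 1.08 CPM in WT and 2.98, 5.76 and 6.26 CPM in sgPrrx1 cultures, of which replicate 1 stood below the others and above WT (log2 2.07 ± 0.27, edgeR adjusted p = 0.000158). Wound-healing fibroblasts had 4.14, 4.52 and 4.45 CPM and 7.26, 7.42 and 6.19 CPM (log2 0.67 ± 0.086, edgeR adjusted p = 0.000107). The 3 MEF groups overlapped, at 1.77, 3.11 and 2.86 CPM in WT, 3.9, 2.94 and 3.27 CPM in mutant and 2.68, 3.1 and 3.97 CPM in sgPrrx1 cultures. Neither change was called in MEF, with log2 values of 0.36 ± 0.24 and 0.32 ± 0.25.

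Tcf4, the bHLH gene, varied least of the 10. Its group means lay between 103 and 208 CPM. It rose in wound-healing fibroblasts from 147, 145 and 146 CPM to 209.6, 210.4 and 205 CPM (1.42-fold, edgeR adjusted p = 3.27e-08) and fell in MMTV-CAF from 130.1, 125 and 127 CPM to 102, 103 and 103 CPM (1.26-fold, edgeR adjusted p = 1.34e-06). WT MEF had 141, 131 and 111 CPM, mutant MEF 113, 117 and 119 CPM and sgPrrx1 MEF 104, 106 and 102 CPM. The mutant overlapped WT (edgeR adjusted p = 0.218). The log2 fold change of −0.31 ± 0.10 in sgPrrx1 MEF (edgeR adjusted p = 0.0374) was lost when any culture but WT replicate 3 was left out (edgeR adjusted p from 0.0807 to 0.114). Tcf7l2, the gene often meant by TCF-4, was lower in sgPrrx1 MEF (−0.77) and MMTV-CAF (−0.90), higher in wound-healing fibroblasts (0.42) and not called in mutant MEF (0.12, all log2 fold changes).

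**Figure D2:**
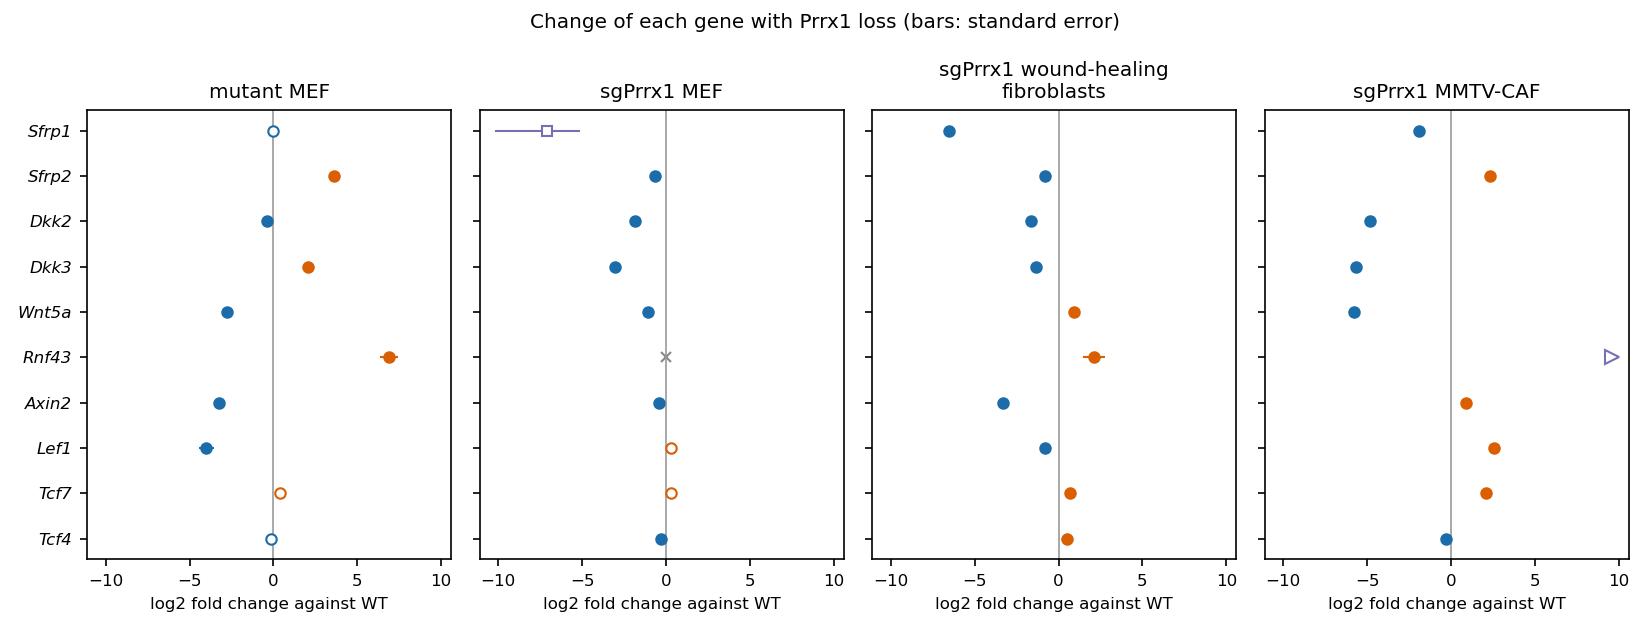
Log2 fold change of the 10 genes against WT in the 4 comparisons, with standard errors (filled where called, open where not, orange above and blue below 0). The open square with a line is the count ratio of Sfrp1 with its counting interval, the open triangle the lower bound for Rnf43, and the cross a gene not tested, and Dkk2 alone is filled below 0 in all 4 panels.

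**Figure D3:**
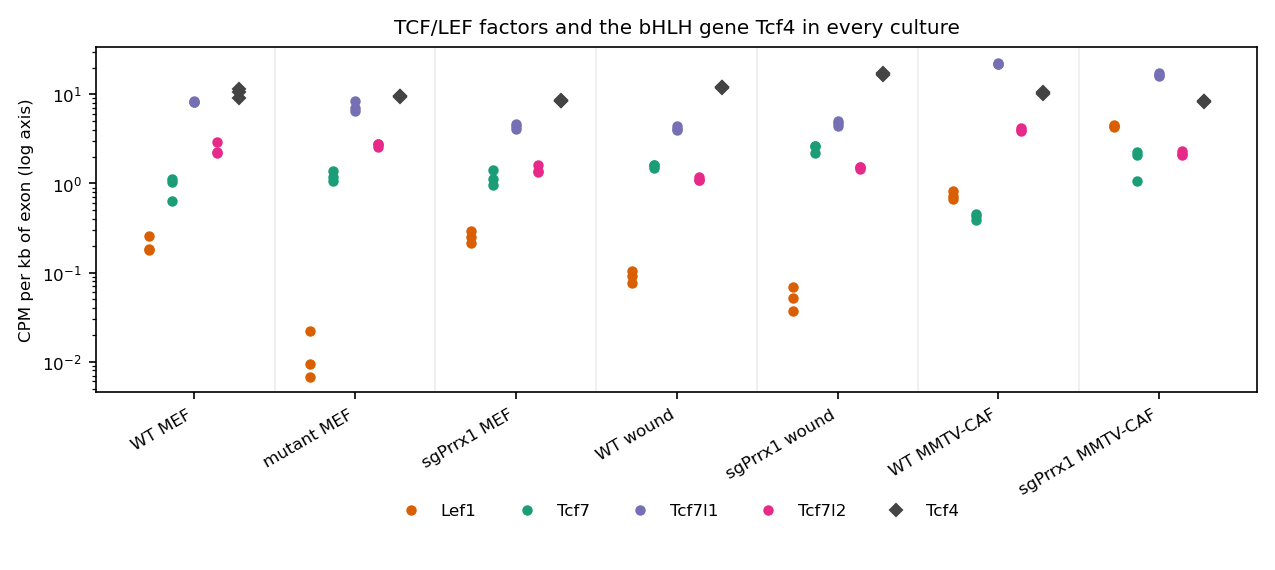
Level of the 4 TCF/LEF genes (circles) and of the bHLH gene Tcf4 (diamonds) in each of the 21 cultures, in CPM per kb of exon on a log axis. Tcf7l1 lies above Tcf7l2 in every group, and Lef1 ranges from 0.0129 CPM per kb in mutant MEF to 4.42 in sgPrrx1 MMTV-CAF.

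Per kb of exon, the TCF/LEF genes can be set beside each other. Tcf7l1, mostly known as a repressor, led the family in every group, from 4.16 CPM per kb in WT wound-healing fibroblasts to 22.2 in WT MMTV-CAF. In WT MMTV-CAF the levels were 4.02 CPM per kb for Tcf7l2, 0.736 for Lef1 and 0.422 for Tcf7. In sgPrrx1 MMTV-CAF they were 2.17, 4.42 and 1.79, so that Lef1 passed Tcf7l2 there. Ctnnb1, the gene of β-catenin, was abundant in all groups, from 91 to 176 CPM per kb. Its changes were small, with log2 fold changes of 0.09 in mutant MEF and −0.14 in sgPrrx1 MEF, neither called. Edited wound-healing fibroblasts had −0.32 and edited MMTV-CAF 0.07, both called.

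TCF/LEF factors bind DNA at short sequences close to CTTTGA or CTTTGT, and the promoter windows of Lef1, Dkk2 and Sp5, a zinc-finger gene widely used as a target of canonical signalling, are shown because they hold such letters. In MMTV-CAF Lef1 and Sp5 rose and Dkk2 fell. Sp5 had 0 counts in each WT MMTV-CAF culture and 1.79, 2.3 and 1.9 CPM in the sgPrrx1 cultures, at least 238-fold higher against a floor of 3 counts over the group. RefSeq windows (GRCm38.p6) from 250 bases before to 50 after a start were given for 6 of the 10 genes, Sfrp2, Dkk2, Rnf43, Axin2, Lef1 and Tcf7, and for Sp5. Both motifs were searched on both strands, and 31.2% of 32851 mouse windows hold at least 1 match. Sp5 (chr2:70474673-70474972, plus strand) holds 5, and 0.0365% of all windows hold at least as many. Window 4 of Lef1 (chr3:131156044-131156343, plus strand) holds 3, and 1.14% of all windows hold at least as many. Dkk2 (chr3:132085042-132085341, plus strand) holds 1. The other 3 windows of Lef1 and those of Sfrp2, Rnf43, Axin2 and Tcf7, which were also called higher in sgPrrx1 MMTV-CAF, hold 0. Counts per gene do not tell which start a transcript came from. The sequences run 5′ to 3′ with matches in capitals, TCAAAG and ACAAAG being the motifs on the opposite strand. A match is a run of letters, and binding was not measured.
Sp5: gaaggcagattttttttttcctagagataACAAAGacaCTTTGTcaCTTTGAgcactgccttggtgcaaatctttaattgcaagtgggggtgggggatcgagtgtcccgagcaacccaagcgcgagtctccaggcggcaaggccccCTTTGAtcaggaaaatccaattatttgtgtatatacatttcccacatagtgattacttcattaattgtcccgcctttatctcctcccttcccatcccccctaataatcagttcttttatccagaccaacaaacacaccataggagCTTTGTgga
Lef1 window 4: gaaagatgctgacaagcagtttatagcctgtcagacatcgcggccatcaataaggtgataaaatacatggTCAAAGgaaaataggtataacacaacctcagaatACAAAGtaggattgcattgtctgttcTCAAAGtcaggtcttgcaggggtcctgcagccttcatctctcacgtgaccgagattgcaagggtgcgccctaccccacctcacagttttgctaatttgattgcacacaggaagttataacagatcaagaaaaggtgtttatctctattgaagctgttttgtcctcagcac
Dkk2: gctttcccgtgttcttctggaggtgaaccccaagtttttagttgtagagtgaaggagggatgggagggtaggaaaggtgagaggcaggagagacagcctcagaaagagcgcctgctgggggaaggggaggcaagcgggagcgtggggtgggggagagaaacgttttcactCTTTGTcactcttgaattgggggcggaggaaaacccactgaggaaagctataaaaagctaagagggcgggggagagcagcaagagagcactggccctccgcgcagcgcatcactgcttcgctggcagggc

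Whether editing acted alike in the 3 types was asked of an interaction term between fibroblast type and sgPrrx1, over 18 WT and edited cultures. All 10 genes were called as differing between types, where 80.1% of 14972 genes were. For Rnf43, with too few counts to test in MEF and 0 counts in WT MMTV-CAF, the call does not compare a measured effect in each type. The adjusted p ranged from 2.99e-14 for Sfrp2 to 0.000453 for Tcf7 (edgeR). Wnt5a, Sfrp2, Lef1, Axin2 and Tcf4 were each called in opposite directions in wound-healing fibroblasts and MMTV-CAF. Among these, the call of Lef1 in wound-healing fibroblasts was lost under 5 of 15 alternatives. That of Axin2 in MMTV-CAF was lost under 3 of 15. Sfrp1, Dkk2 and Dkk3 fell in all 3 types but by different amounts. Their log2 fold changes in wound-healing fibroblasts and MMTV-CAF were −6.55 and −1.91 for Sfrp1, −1.66 and −4.82 for Dkk2 and −1.34 and −5.70 for Dkk3.

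The mutant and the edited MEF were also compared directly, since they share their WT cultures. With the mutant as reference, 8 of 10 genes differed, 5 lower and 3 higher in sgPrrx1 MEF, where 56.2% of 13379 genes did (28.4% lower and 27.8% higher). The sgPrrx1 MEF had less Rnf43 (log2 −8.59 ± 0.36), Dkk3 (−5.15 ± 0.12), Sfrp2 (−4.27 ± 0.074) and Dkk2 (−1.44 ± 0.15), and Sfrp1 was 132-fold higher in the mutant (95% counting interval 36.2 to 1096). They had more Lef1 (4.26 ± 0.38), Axin2 (2.81 ± 0.17) and Wnt5a (1.66 ± 0.15). Tcf7 was not called (log2 −0.05 ± 0.18, edgeR adjusted p = 0.851), nor was Tcf4 (log2 −0.15 ± 0.055, edgeR adjusted p = 0.0529), which lay near the threshold and was called lower under 6 alternatives (adjusted p from 0.0223 to 0.0481). Prrx1 itself was 5.43-fold higher in sgPrrx1 than in mutant MEF.

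Beyond these genes, a list of 91 Wnt pathway genes grouped by role, 9 of them among the 10, was counted in each comparison. In mutant MEF 29 of 69 tested were lower and 17 higher (66.7% called, against 59.9% of all genes). In sgPrrx1 MEF 33 of 67 were lower and 6 higher (58.2%, against 43.1%), with a median log2 fold change of −0.23 where all genes had a median of 0.0017. In wound-healing fibroblasts 30 of 74 were lower and 32 higher (83.8%, against 77.6%), and in MMTV-CAF 43 of 73 were lower and 23 higher (90.4%, against 83.1%). With at least a 2-fold change also asked, 17 were lower and 6 higher in wound-healing fibroblasts, where 984 of all genes were lower and 1195 higher. The same threshold left 16 lower and 9 higher in mutant MEF, where 1970 of all genes were lower and 1313 higher. In sgPrrx1 MEF it left 16 lower and 2 higher, where all genes leaned the same way, with 1200 lower and 211 higher. In MMTV-CAF it left 19 lower and 11 higher, against 1778 and 1599 of all genes. For mutant MEF the list's median log2 fold change was −0.12, for edited wound-healing fibroblasts 0.03 and for edited MMTV-CAF −0.19, where those of all genes were 0.0094, 0.0044 and −0.0032. By role, the counts were small and mostly mixed in direction. In mutant MEF, where 30.5% of all genes were lower and 29.4% higher, 5 of 8 ligands were lower and 2 higher. Of 7 secreted antagonists 4 were lower and 2 higher, and 6 of 15 receptors were higher and 4 lower. In sgPrrx1 MEF, where 22.8% of all genes were lower, 6 of 7 secreted antagonists and 7 of 15 receptors were lower and none higher, and the 46.7% of receptors called was close to the 43.1% of all genes. Wound-healing fibroblasts, with 39.3% of all genes lower and 38.3% higher, had 10 of 12 cytoplasmic components higher and 2 lower. Of 13 nuclear factors 8 were higher and 4 lower there, and sizes were small (median log2 fold changes of 0.18 and 0.19). There 7 of 15 receptors were lower and 4 higher, and ligands were split into 6 lower and 5 higher of 13. In MMTV-CAF, with 41.9% of all genes lower and 41.2% higher, 9 of 15 receptors were lower and 5 higher, and 8 of 12 cytoplasmic components were lower and 3 higher. Of 12 ligands 7 were lower and 4 higher, and of 7 secreted antagonists 5 were lower and 2 higher. Nuclear factors were split into 5 and 5 of 13. Of the genes grouped as the R-spondin arm 5 of the 6 tested were lower there. They were Rspo2 and the R-spondin receptor genes Lgr4, Lgr5 and Lgr6, whose products protect Frizzled, and Znrf3, whose product removes it as RNF43 does, while Rnf43 was higher.

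**Figure D4:**
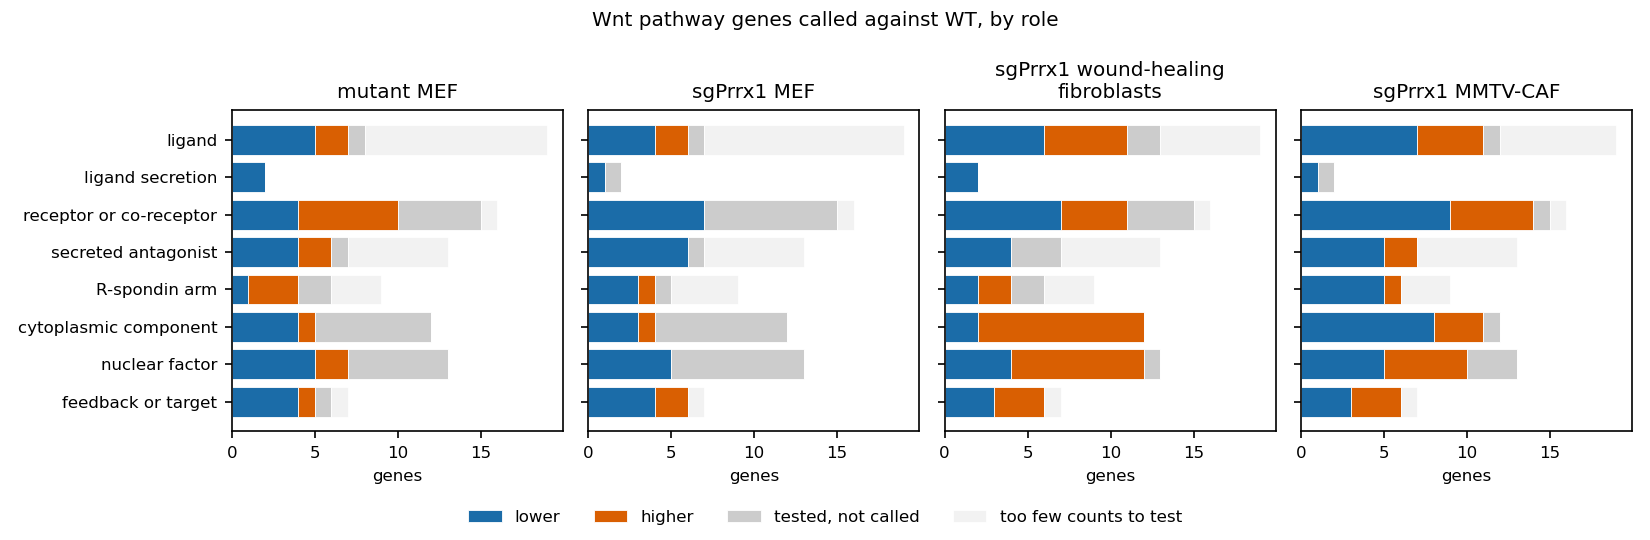
Number of genes of the 91-gene Wnt list called lower (blue) or higher (orange), tested and not called (grey) or with too few counts to test (light grey), by role and comparison against WT. In sgPrrx1 MEF 7 receptors and 6 secreted antagonists are lower, and in wound-healing fibroblasts 10 cytoplasmic components are higher.

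Among ligands, Wnt10b, which acts through the canonical branch, rose in mutant MEF from 0.16, 0 and 0.0575 CPM to 13.1, 13.1 and 11.8 CPM (log2 7.42 ± 0.52). Wnt7b and Wnt7a, relatives known from epithelia, moved apart in wound-healing fibroblasts. Wnt7b fell from 47.4, 48.6 and 50.4 CPM to 3.61, 4.22 and 4.31 CPM (log2 −3.6 ± 0.062), and Wnt7a rose from 0.0766, 0.0618 and 0.0926 CPM to 2.58, 2.4 and 2.36 CPM (log2 4.96 ± 0.21). Wnt7b rose in sgPrrx1 MEF (log2 1.34 ± 0.16). Wnt4 rose in MMTV-CAF from 7.13, 6.19 and 6.68 CPM to 54.4, 55.6 and 55 CPM (log2 3.03 ± 0.049). The groups did not overlap in any of these. In wound-healing fibroblasts Wnt6 (log2 −3.52 ± 0.54) and Wnt2 (1.7 ± 0.28) stayed under 1 CPM in every culture, and Wnt3 had 0 counts after editing, at least 16.9-fold lower.

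Among receptors and R-spondins, Fzd4, a Frizzled receptor, fell in MMTV-CAF from 53.6, 56 and 55.1 CPM to 0.923, 1.005 and 1.06 CPM (log2 −5.8 ± 0.050), and Fzd6 rose in mutant MEF (log2 2.0 ± 0.27). Rspo2, a secreted amplifier of Wnt signalling, rose in mutant MEF from 6.29, 5.63 and 6.32 CPM to 58.3, 61.2 and 61.4 CPM (log2 3.28 ± 0.090) and fell in MMTV-CAF from 6.74, 6.44 and 6.52 CPM to 0, 0.0296 and 0.0357 CPM (log2 −8.16 ± 0.26). It was also lower in sgPrrx1 MEF (−2.79) and wound-healing fibroblasts (−2.79). Rspo3, its relative, fell in sgPrrx1 MEF from 13.8, 14.5 and 15.9 CPM to 0.68, 0.798 and 1.02 CPM (log2 −4.15 ± 0.16). Lgr5, an R-spondin receptor, fell in MMTV-CAF from 1.13, 0.828 and 1.2 CPM to 0, 0.0296 and 0.0179 CPM (log2 −5.92 ± 0.46). Znrf3, the paralogue of Rnf43, rose in sgPrrx1 MEF (log2 1.04 ± 0.28) and fell in MMTV-CAF (−0.51 ± 0.075), where Rnf43 rose.

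Other antagonists and targets were as uneven. Frzb, an SFRP relative, fell in mutant MEF (log2 −4.11 ± 0.33) and in sgPrrx1 MEF (−6.42 ± 0.67), from 2.32, 2.51 and 2.82 CPM in WT to 0.219, 0.0826 and 0.147 CPM and 0, 0.0886 and 0 CPM. Sfrp4 fell in sgPrrx1 MEF (log2 −3.85 ± 0.83) from at most 1.63 CPM. Notum, an enzyme that strips the lipid from Wnt ligands and is induced by canonical signalling, rose in MMTV-CAF from 0.532, 0.645 and 0.476 CPM to 5.52, 5.48 and 5.68 CPM (log2 3.32 ± 0.12). Nkd1, a feedback inhibitor, fell in mutant MEF from 4.13, 4.22 and 3.84 CPM to 0.155, 0.165 and 0 CPM (log2 −5.19 ± 0.59). In wound-healing fibroblasts Nkd1 had 2 counts in WT and 289 after editing, 145-fold higher with a 95% counting interval from 39.8 to 1203, while Axin2 fell there. Pygo1, a co-activator of β-catenin, fell in mutant MEF (log2 −4.09 ± 0.37). Ccnd1, the gene of cyclin D1, fell in mutant MEF from 680.3, 682 and 664 CPM to 148, 161 and 177 CPM (log2 −2.09 ± 0.086), rose in sgPrrx1 MEF (0.39) and wound-healing fibroblasts (0.73), and changed by −0.07 in MMTV-CAF. Myc, the growth regulator, rose in all 4 comparisons, with log2 fold changes of 0.56 in mutant MEF, 0.89 in sgPrrx1 MEF, 0.49 after editing of wound-healing fibroblasts and 0.93 after editing of MMTV-CAF.

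**Figure D5:**
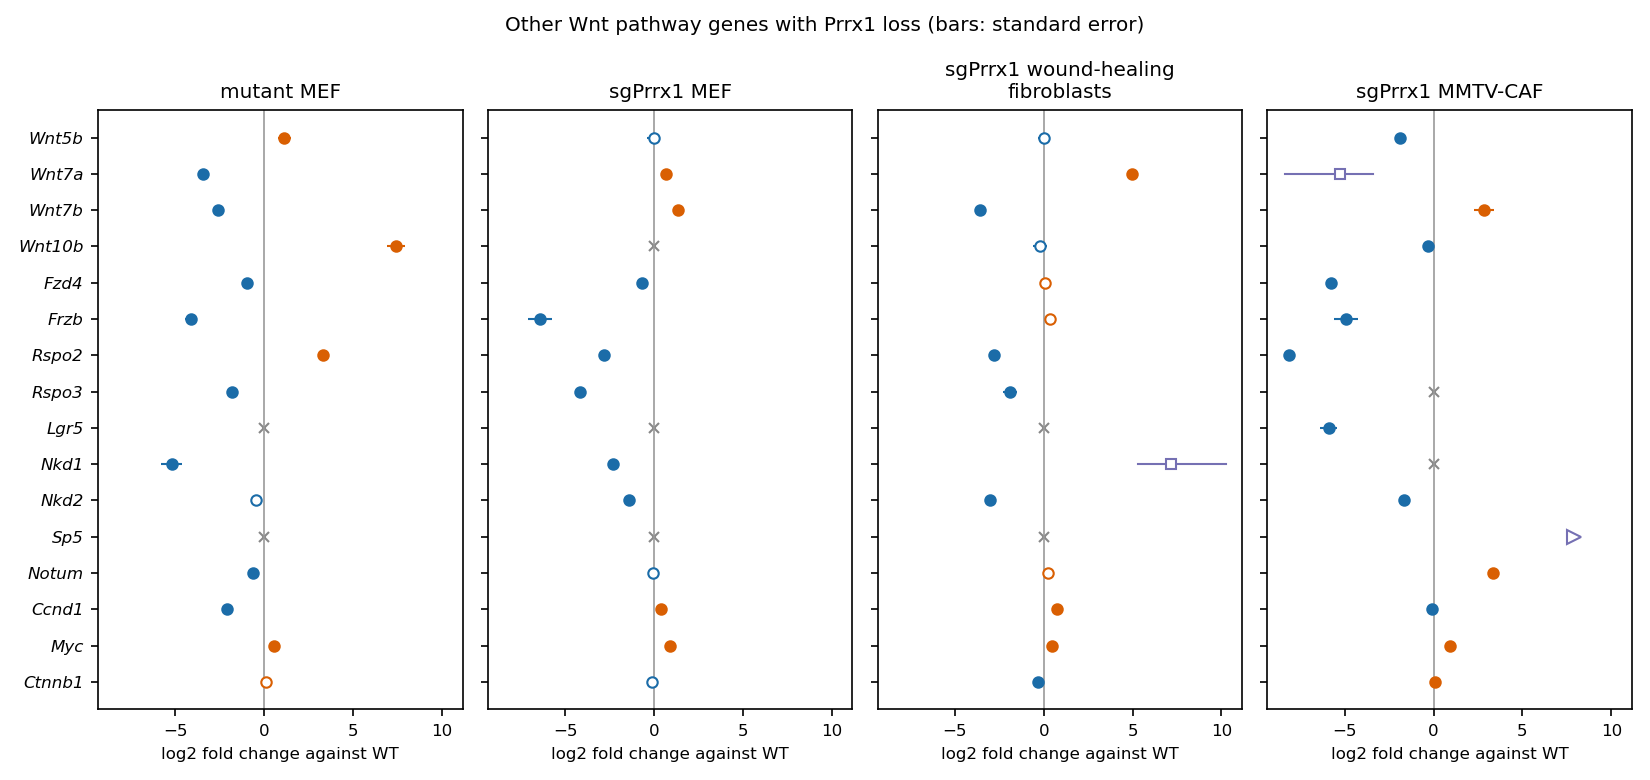
Log2 fold change against WT of 16 further Wnt pathway genes, picked for this plot after their values were seen, with standard errors (filled where called, open circles where not). Squares are count ratios with counting intervals, triangles lower bounds and crosses genes not tested, and Myc alone lies above 0 in all 4 panels.

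The genes whose levels ran most like each of the 10 were sought over all 21 cultures, on log2 CPM with a prior count of 2. The points share group, fibroblast type and library, so the correlations mostly compare 7 group means and are a description. Dkk3 was most like Rspo2 (Pearson r = 0.986, n = 21). Sfrp1 was most like Ccdc80 (r = 0.986), Sfrp2 most like Usp12 (0.990), Wnt5a most like Prkg1 (0.986) and Dkk2 most like Aldh1a1 (0.982). Tcf7 was most like Gnl2 (0.928), with Ptk7, a Wnt co-receptor, second (0.925). Values were 0.949 for Rnf43 with Atp13a3, 0.957 for Axin2 with Fam177a, 0.968 for Lef1 with Col4a5 and 0.945 for Tcf4 with Snord2.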

How the data were processed

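The authors deposited a table of whole-number counts per gene for each fibroblast type, without normalization, made with Trimmomatic, STAR (mm10) and HTSeq. Gene annotation and strand setting are not given in the sources used here, and the library kit does not mark strand. The study's methods name a ComBat-seq batch correction, and whether it was applied to the mouse tables is unclear from their wording. The 21 columns all entered, and 0 lacked a sample. Wound and MEF columns do not name the cell type and were assigned by their table's name, and for MEF also by the mutant group that only MEF have. Among deposited counts of 1 to 20, between 52.1 and 58.2% per group were even, and an alternative with all counts divided by 2 was run.

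Counts were tested in R 4.3.3 with edgeR 4.0.16 (filterByExpr, TMM, glmQLFit, glmQLFTest, Benjamini-Hochberg adjusted p under 0.05) on the 6 cultures of a comparison and over all genes kept. Standard errors are the absolute log2 fold change divided by the square root of F. Levels are CPM with TMM over the 24447 symbols shared by the 3 tables, and exon lengths came from Gencode M1 (92 of 92 genes matched). Groups at 0 counts were set to 3 counts over the group, and count ratios carry exact 95% intervals, which cover counting error only. One count is worth between 0.00739 and 0.0148 CPM.

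The 10 genes, the Wnt list, the markers and the tests were chosen with earlier results of these data known. Genes named beside the 10 and Prrx1 are, per comparison with WT, the 3 lower and 3 higher list genes with the largest called change, plus Tcf7l2, Ctnnb1, Ccnd1 and Myc, and the 2 genes most correlated with each of the 10; Tcf7l1, Lgr4, Lgr6, Ptk7 as a list gene and the values of a named gene outside its own comparison were added after values were seen. Alternatives were DESeq2 1.42.0, RLE and upper-quartile scaling, no filter, a minimum of 10 counts per culture, the replicate block, a 2-fold threshold, all 21 cultures in one model, halved counts and each replicate left out. The steps were tested on simulated data. The smallest exact permutation p for 3 against 3 cultures is 0.1, so no such test is given.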

Additional observations from a re-analysis of the deposited data

Results flagged for a closer look

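The effect of sgPrrx1 was called as differing between MEF, wound-healing fibroblasts and MMTV-CAF for each of the 10 genes by the edgeR interaction test over 18 cultures, in which 80.1% of all genes tested also differed. Rnf43 had too few counts to test in MEF and 0 counts in WT MMTV-CAF. Its call therefore does not compare a measured effect in each type. The adjusted p was 5.17e-12 for Sfrp1, 2.99e-14 for Sfrp2, 2.26e-12 for Dkk2 and 2.91e-10 for Dkk3. It was 1.49e-12 for Wnt5a, 3.47e-06 for Rnf43 and 4.87e-10 for Axin2. For Lef1 it was 6.66e-09, for Tcf7 0.000453 and for Tcf4 5.09e-07. Log2 fold changes in MEF, wound-healing fibroblasts and MMTV-CAF were −0.66, −0.80 and 2.33 for Sfrp2, −1.08, 0.94 and −5.77 for Wnt5a, and −0.43, −3.33 and 0.87 for Axin2.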

How the results depend on the processing

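Of 1024 recomputed changes and interaction tests of the 10 genes, 985 kept their direction and their side of the threshold, 28 lost their call, 8 gained one and 3 turned in sign, none of these 3 called: Sfrp1 in mutant MEF without WT replicate 1 (log2 fold change 0.13), and Tcf7 in sgPrrx1 against mutant MEF without mutant replicate 1 (0.0712) or sgPrrx1 replicate 1 (0.0750). Over all cultures left out in turn, the first ranged from −0.21 to 0.13 and the second from −0.22 to 0.075. Asking for a 2-fold change left 3283 genes in mutant MEF, 1411 in sgPrrx1 MEF, 2179 in wound-healing fibroblasts, 3377 in MMTV-CAF and 2838 in sgPrrx1 against mutant MEF, with 25, 18, 23, 30 and 22 genes of the Wnt list, and 4 of the 10 genes in sgPrrx1 MEF and 5 in wound-healing fibroblasts; in sgPrrx1 MEF 1200 of the 1411 were lower, against 3051 of 5764 without that threshold. Leaving out 1 culture at a time gave from 3830 to 6340 genes called in sgPrrx1 MEF, the lowest without WT or sgPrrx1 replicate 2. Correlations of same-numbered cultures ranged from −0.355 to 0.203 over the 5 comparisons, the highest for replicate 3 of WT and sgPrrx1 MEF. With 3 cultures per group these values cannot decide whether the numbers pair the samples. With the replicate block 6457, 6629, 10519, 11320 and 5268 genes were called, with 6, 7, 10, 10 and 8 of the 10 genes. Dkk2 in mutant MEF was then not called (edgeR adjusted p = 0.0517). The 8 gained calls were all of Tcf4. In mutant MEF it was called with all 21 cultures in one model (edgeR adjusted p = 0.0485) and without WT replicate 3 (0.0387). In sgPrrx1 against mutant MEF it was called lower by DESeq2 (adjusted p = 0.0223), and by edgeR with upper-quartile scaling (0.0296), at least 10 counts per culture (0.0428), all 21 cultures in one model (0.0261), halved counts (0.0481) or without mutant replicate 1 (0.0446). RLE scaling moved group levels by factors from 0.979 to 1.02, and library totals alone by 0.932 to 1.08.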
